A study of Mus musculus with 10 samples.

Results

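Cytochrome P450 enzymes of families 1 to 4 were followed here in mouse bladder RNA. The members were taken as every protein-coding gene in the GENCODE vM21 annotation whose symbol is Cyp, a family number from 1 to 4, a subfamily letter and a gene number. This gave 80 genes of 22028 protein-coding genes and of 55536 genes counted in all: 3 of family 1, 48 of family 2, 9 of family 3 and 20 of family 4. The study asked what the loss of either of 2 secreted matrix proteoglycans, osteomodulin (OMD) or PRELP, does to gene expression in the bladder. Poly-A RNA of homogenised bladder tissue was sequenced from 10 C57BL/6 samples: 4 wild type (WT), 3 OMD-/- and 3 PRELP-/-. These group sizes follow the labels and differ from those in the text of the study. The study describes each knockout as constitutive, with the coding sequence removed and a β-galactosidase gene put under the promoter of the deleted gene, so the knockouts carry that reporter and the WT mice do not. Its text speaks of isolated bladder epithelia where the labels speak of bladder tissue, and age and sex are not given in the sources used here.

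P450 enzymes are haem proteins of the endoplasmic reticulum that insert an oxygen atom into their substrate, with electrons passed on from NADPH by P450 oxidoreductase (Por). Family 1 is induced by the aryl hydrocarbon receptor (AHR) and oxidises aromatic compounds, families 2 and 3 take drugs, solvents and steroids, and several members of families 2 and 4 oxidise arachidonic acid and other fatty acids. The liver holds most of them, whereas the urothelium, the epithelium that lines the bladder, meets the compounds and metabolites that the kidney excretes. In the mouse most of these genes sit in tandem clusters, some of them as near copies, while others lie alone.

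The 3 promoters shown here are those of an adjacent pair that was on and off in these samples, Cyp1a1 and Cyp1a2, and of Cyp2e1, which rose in both knockouts. Each line holds the 100 bases before the RefSeq start of the gene on GRCm38.p6, 5′ to 3′ on the strand of the gene, with capitals for the letters GCGTG, which are the core of the site that AHR binds, and for a TATA box. The windows are chr9:57697513-57697612 on the plus strand for Cyp1a1, chr9:57683656-57683755 on the minus strand for Cyp1a2 and chr7:140763719-140763818 on the plus strand for Cyp2e1.
Cyp1a1: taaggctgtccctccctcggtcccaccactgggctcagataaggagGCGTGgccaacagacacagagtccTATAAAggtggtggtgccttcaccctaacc
Cyp1a2: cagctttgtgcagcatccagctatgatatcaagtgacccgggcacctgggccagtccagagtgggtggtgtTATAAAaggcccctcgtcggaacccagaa
Cyp2e1: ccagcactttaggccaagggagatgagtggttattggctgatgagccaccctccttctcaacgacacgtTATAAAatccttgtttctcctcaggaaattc

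The Cyp1a1 window held GCGTG 54 bases and TATAAA 30 bases before the start, while the windows of Cyp1a2 and Cyp2e1 held TATAAA alone, 29 and 31 bases before the start. RefSeq promoters, from 250 bases before to 50 bases after a start, were found for 65 of the 80 members. For a member with several starts, the promoter of lowest coordinate was used, while the share of all promoters counts every start. Another start of Cyp2c39 held TATAAA and another of Cyp4f14 held GCGTG. The GTTAAT of Cyp4f14 and of Cyp4f40 stood only at the start used. On either strand, TATAAA stood in 2 of the 18 promoters of members detected in every WT library and in 26 of the 47 others, against 13.6% of all 32851 promoters. GCGTG stood in 7 of the 18 and 5 of the 47, against 32.4% of all promoters, and GTTAAT, a core of the site of the liver factor HNF1, in 0 of the 18 and 10 of the 47, against 7.1%. These matches describe letters in a window and were not tested.

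Total counts ran from 20391437 to 46269079 per library. The deepest library, WT 1, listed 709 genes at exactly 1 count, against 1429 to 3324 in the other 9 libraries. Omd was at 0 counts in the 3 OMD-/- libraries, but it was also at 0, 1, 8 and 12 counts in WT 1 to 4, so it hardly checks the labels. Prelp lay between 214 and 317 CPM (counts per 1000000 counted) in WT, between 771 and 825 CPM in OMD-/- and between 1.84 and 4.20 CPM in PRELP-/-. The summed level of 4 Y chromosome genes was 188 and 163 CPM in WT 1 and 2 and 0 and 0.0442 CPM in WT 3 and 4, from 0.730 to 18.1 CPM in OMD-/-, and 120, 18.7 and 18.5 CPM in PRELP-/- 1 to 3. Xist, the RNA of the inactive X chromosome, was at 2.13, 5.63, 1019 and 1225 CPM in WT 1 to 4, from 38.2 to 88.7 CPM in OMD-/- and at 0.397, 48.5 and 55.4 CPM in PRELP-/- 1 to 3. The OMD-/- libraries and PRELP-/- 2 and 3 thus lay between the WT libraries on Xist, and whether samples were pooled is not given in the sources used here. Libraries of a group were unequally close. The typical squared deviation between 2 libraries over genes was 2.33 times counting noise for PRELP-/- 2 and 3, 2.49 times for OMD-/- 2 and 3 and 3.45 times for WT 3 and 4, but 64.6 and 66.4 times between PRELP-/- 1 and the other PRELP-/- libraries, and no pair was within counting noise. Urothelial markers were high in WT (5 umbrella cell markers summed to between 7309 and 8908 CPM). Of 4 liver markers, Alb, Apoa1 and Serpina1a had at most 3 counts in every library, while Ttr, which other epithelia also express, was at 27.8 to 77.3 CPM.

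Most of the 80 genes were not detectable in bladder at this depth. A gene was taken as detected in a library above 3 counts, which was between 0.0598 and 0.170 CPM. In WT, 23 members were detected in every library, 7 in some and 50 in none. Over all 10 libraries, 36 members had 0 counts throughout, which in a library allows a level of up to that same limit of 3 counts, 14 had counts that never passed 3, 22 were above 3 counts in every library and 8 only in some. Intervals and limits of this kind cover counting error only.

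Enzymes known from liver and kidney were among the silent members. Cyp1a2, an oxidase of caffeine and aromatic amines, had 0 counts in all libraries. Cyp4a10, a fatty acid ω-hydroxylase that PPARα induces in liver, was at 0 counts as well, and Cyp4a12a, an arachidonic acid ω-hydroxylase of male kidney, had 1 count in 1 library, PRELP-/- 3. Of the 36 members at 0 counts, 17 share over 20% of their 50-base stretches with another gene, up to 98.6% for Cyp3a41a, so reads from them could have been set aside as ambiguous when counted. No member detected in every WT library shares that much (the highest is Cyp4f16 at 17.4%), and Cyp1a2 shares 4.79%.

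**Figure D1:**
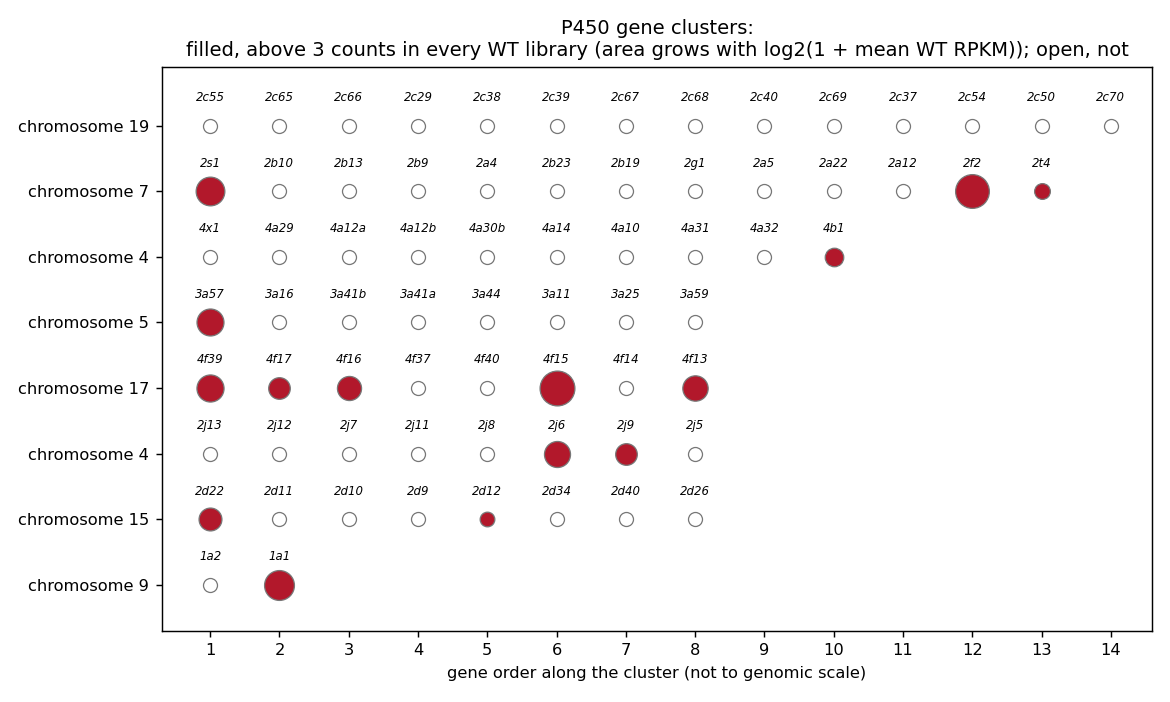
The 8 clusters of members less than 1000000 bases apart, one row each, with genes in chromosomal order along the x axis; filled circles were above 3 counts in every WT library, with an area that grows with log2(1 + mean RPKM in WT), and open circles were not. The 14 genes of the Cyp2c row on chromosome 19 are all open, while 5 of 8 are filled in the Cyp4f row on chromosome 17.

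Detection differed between the clusters. On chromosome 17, 5 of 8 Cyp4f genes were detected in every WT library. In the mixed Cyp2 cluster on chromosome 7, 3 of 13 genes were detected (Cyp2s1, Cyp2f2 and Cyp2t4), and the Cyp2a, Cyp2b and Cyp2g genes between them were not. On chromosome 19, 0 of the 14 clustered Cyp2c genes were detected, while Cyp2c23, an arachidonic acid epoxygenase that lies apart from them at chr19:44005022-44029208, was detected in all libraries. On chromosome 5, Cyp3a57 was the 1 detected gene of 8, with Cyp3a13 detected outside the cluster. On chromosome 4, 2 of 8 Cyp2j genes (Cyp2j6 and Cyp2j9) and 1 of 10 genes of the Cyp4a, Cyp4b and Cyp4x cluster were detected. That gene was Cyp4b1, an activator of aromatic amines, and none of the 8 Cyp4a genes was. Cyp2d22 and Cyp2d12 were detected of 8 Cyp2d genes on chromosome 15, and Cyp1a1 of the pair on chromosome 9.

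The 8 members above 3 counts in some libraries only had at most 20 counts, reached by Cyp4f40 in PRELP-/- 3. Cyp2b13 had 0, 13, 17 and 14 counts in WT 1 to 4, and Cyp4f40 had 0, 2, 9 and 16. Both were listed at 0 in WT 1, the deepest library and the one with few genes at low counts.

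Levels were compared between genes as RPKM, the CPM per kilobase of exon. Cyp4f15 and Cyp2f2 together made up 59.4% of the summed RPKM of the 80 members in WT. Cyp4f15, a leukotriene and fatty acid ω-hydroxylase at chr17:32685627-32703352, stood at 121.6 RPKM, 34.8% of the sum. Cyp2f2, the enzyme that activates naphthalene in lung club cells, lies at chr7:27119909-27133660 and followed at 85.7 RPKM, or 24.5%. Scgb1a1, the club cell marker, stayed at or below 0.624 CPM in every library.

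The next members by mean RPKM in WT were Cyp1b1 at 26.7, Cyp1a1 at 25.9, Cyp2s1 at 18.5, Cyp4f39 at 11.7, Cyp3a57 at 11.3, Cyp4v3 at 9.23, Cyp2j6 at 8.75 and Cyp4f13 at 7.26. These are an oxidase of oestrogens and retinoids (Cyp1b1), a retinoid and prostanoid oxidase of epithelia (Cyp2s1), an ω-hydroxylase of very long fatty acids of the skin barrier (Cyp4f39), a fatty acid hydroxylase whose human counterpart is lost in a retinal dystrophy (Cyp4v3) and an arachidonic acid epoxygenase (Cyp2j6). The first 10 made up 93.6% of the sum, 17 members reached 1 RPKM and 7 reached 10 RPKM. By family, family 4 held 45.7% of the sum, family 2 held 35.9%, family 1 held 15.1% and family 3 held 3.34%.

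**Figure D2:**
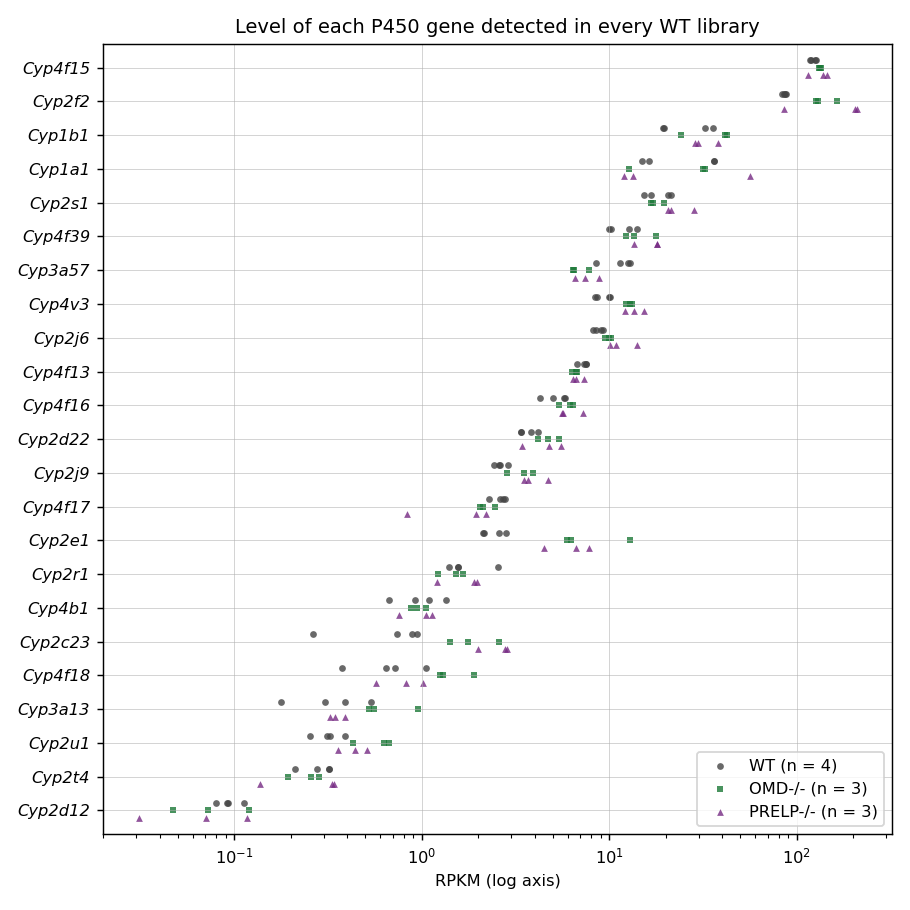
RPKM on a log axis of the 23 members above 3 counts in every WT library, with a symbol for each WT, OMD-/- and PRELP-/- library, ordered by the WT mean. Cyp4f15 (121.6 RPKM in WT) and Cyp2f2 (85.7) stand above the rest, and Cyp2d12 is last.

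Neighbours in this order often could not be told apart. Of the 23 neighbouring pairs among the first 24 members, 15 had overlapping WT libraries and 8 did not. Cyp4f15 and Cyp2f2 did not overlap with each other or with Cyp1b1, whereas Cyp1b1, Cyp1a1 and Cyp2s1 overlapped from one to the next, as did Cyp4f39, Cyp3a57, Cyp4v3 and Cyp2j6.

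The spread between WT libraries was small for the most abundant members and large for family 1. Cyp2f2 measured 175, 172, 177 and 169 CPM in WT 1 to 4, a coefficient of variation of 1.87%. Cyp4f15 measured 267, 286, 288 and 270 CPM, or 3.90%. Cyp1a1 measured 41.4, 45.1, 101 and 101 CPM, or 46.3%.

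In the comparison of OMD-/- with WT, 7 of the 23 members tested passed the threshold, an adjusted p of 0.05 (quasi-likelihood test in edgeR, adjusted by Benjamini-Hochberg across every gene tested). Higher were 6 (Cyp2e1, Cyp2c23, Cyp4f18, Cyp2u1, Cyp2f2 and Cyp4v3) and lower was 1 (Cyp3a57). The share, 30.4%, was near the 29.4% of all 16647 genes that passed, 14.3% of them higher and 15.1% lower. The median log2 fold change was 0.20 over the members tested and 0.00 over all genes (-0.0002). The other 57 members had too few counts to be tested, so these counts do not stand for all 80.

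Cyp2e1, the oxidase of ethanol, acetaminophen and small solvents (chr7:140763739-140774987), measured 6.04, 5.59, 4.56 and 4.65 CPM in WT 1 to 4, 27.8, 12.8 and 13.4 CPM in OMD-/- 1 to 3 and 9.65, 16.7 and 14.3 CPM in PRELP-/- 1 to 3. Every knockout library lay above every WT library, and OMD-/- 1 was the highest. The OMD-/- mean of 18.0 ± 8.50 CPM (SD, n = 3) was 3.46 times the WT mean of 5.21 ± 0.723 CPM (SD, n = 4). The log2 fold change was 1.77 (SE 0.26, adjusted p = 0.000887), the largest of the members that passed. Without OMD-/- 1 it was 1.34, below the 1.61 of Cyp2c23 in the same setting.

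Cyp2c23 measured 2.03, 0.567, 1.90 and 1.59 CPM in WT, 3.06, 3.81 and 5.57 CPM in OMD-/- and 4.31, 5.97 and 6.11 CPM in PRELP-/-. The WT libraries were all below the knockout libraries, with WT 2 the lowest at 13 counts. The log2 fold change in OMD-/- was 1.42 (SE 0.38, adjusted p = 0.0164). Without OMD-/- 3 its adjusted p was 0.0886.

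Cyp2f2 measured 330, 257 and 263 CPM in OMD-/-, all above the WT range of 169 to 177 CPM. Its log2 fold change was 0.70 (SE 0.09, adjusted p = 0.000413), or 0.0849 when the spread was shared with the PRELP-/- libraries. An antisense RNA, Gm15883, overlaps 13.5% of its exon length at 0.695 CPM.

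Cyp4v3 measured 32.7, 31.8, 37.9 and 38.3 CPM in WT and 46.8, 50.2 and 48.9 CPM in OMD-/-, a rise of 0.47 on the log2 scale (SE 0.10, adjusted p = 0.00528). The OMD-/- libraries were again all above WT.

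Cyp3a57, which lies at chr5:145345279-145390926 and was the sole member to fall, measured 25.0, 16.9, 22.7 and 25.6 CPM in WT and 15.5, 12.9 and 12.7 CPM in OMD-/-. The groups did not overlap, and WT 2 came closest to the knockouts. The log2 fold change was -0.72 (SE 0.15, adjusted p = 0.00584).

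Cyp2u1, a hydroxylase of long-chain fatty acids, and Cyp4f18, a leukotriene B4 hydroxylase of neutrophils, passed at lower levels. Cyp2u1 measured 2.05, 1.70, 1.33 and 1.64 CPM in WT and 2.26, 3.30 and 3.52 CPM in OMD-/- (0.84 on the log2 scale, SE 0.26, adjusted p = 0.0308). Cyp4f18 measured 1.34, 0.698, 1.19 and 1.95 CPM in WT and 2.31, 2.42 and 3.52 CPM in OMD-/- (1.08, SE 0.34, adjusted p = 0.0330). Both groups of libraries were apart, but each call was lost in several of the 16 settings tried. Zfp961 lies on the opposite strand over 9.76% of the exon length of Cyp4f18 and measured 19.4 CPM, and since the strand setting of the counting is not stated, the value of Cyp4f18 is uncertain.

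**Figure D3:**
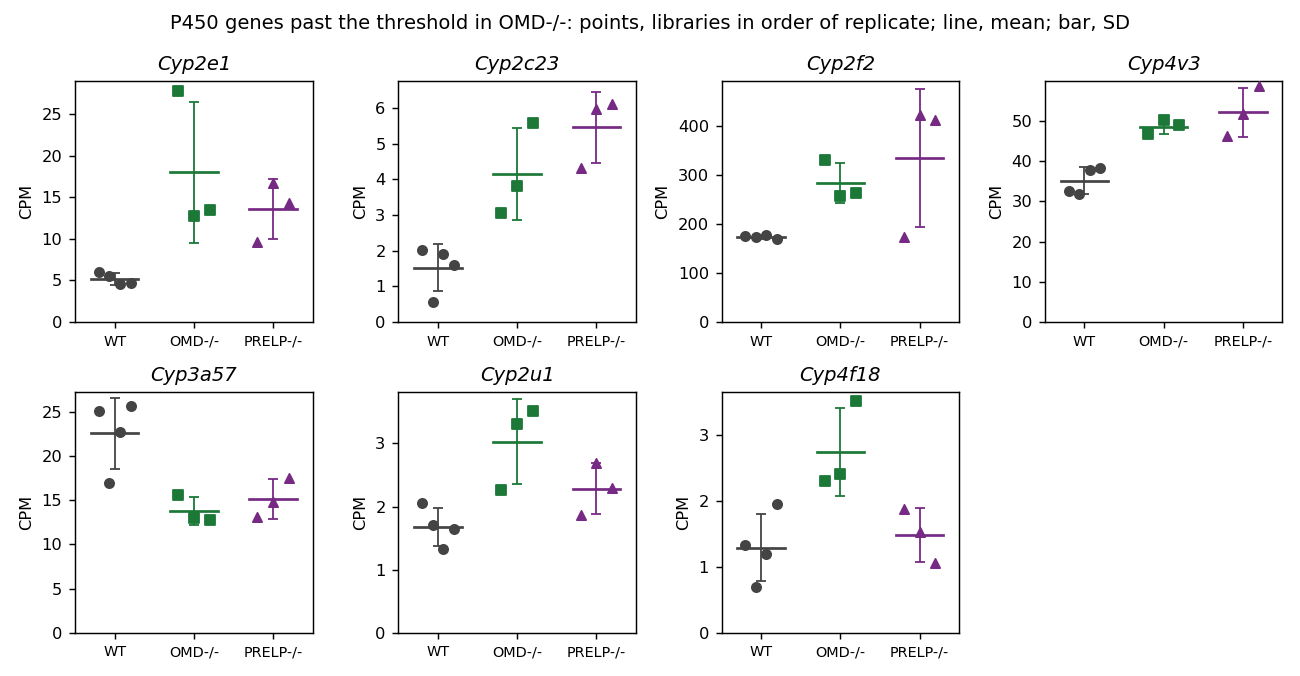
CPM of the 7 members that passed the threshold in OMD-/- against WT, with a point for each library in order of replicate, a line at the group mean and a bar of 1 SD. For Cyp2e1 the WT points lie between 4.56 and 6.04 CPM and all knockout points above; for Cyp2f2 the first PRELP-/- point, 173 CPM, lies within the WT range.

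The remaining members tested did not pass. Over all members tested, 8 lay wholly above and 1 wholly below WT, where 38.9% of all genes tested had groups that did not overlap, 19.3% above and 19.6% below. Cyp4f15 was at 302, 307 and 299 CPM in OMD-/-, above all WT libraries, with a log2 difference of 0.12 (SE 0.08, adjusted p = 0.239). Cyp2j6 was at 35.9, 36.8 and 34.1 CPM, also above WT (0.17, SE 0.08, adjusted p = 0.149). Cyp2s1, Cyp4b1 and Cyp4f13 differed from WT by between -0.15 and -0.06 on the log2 scale. Cyp3a13, a Cyp3a gene of extrahepatic tissues, measured 0.897, 0.524, 1.15 and 1.59 CPM in WT and 1.55, 1.65 and 2.83 CPM in OMD-/- (0.96, SE 0.39, adjusted p = 0.0863).

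Markers of cell types were measured in the same libraries, where 14.3% of all genes tested passed as higher in OMD-/- and 15.1% as lower. The 3 macrophage markers all rose in OMD-/-, with a sum of 69.2 to 80.4 CPM in WT and 104 to 185 CPM in OMD-/-. Pdgfra and Col1a1 rose of 4 fibroblast markers, with a sum of 4165 to 4429 CPM in WT and 7884 to 9524 CPM in OMD-/-. Upk1a and Upk2 rose of 5 umbrella cell markers. The 4 smooth muscle markers did not pass, with a sum of 248 to 1129 CPM in WT and 313 to 662 CPM in OMD-/-. The 3 endothelial markers did not pass either, with a sum of 102 to 241 CPM in WT and 281 to 326 CPM in OMD-/-, above every WT library. In bulk tissue, a change in the number of cells of a type and a change in RNA per cell cannot be told apart, and the part of these markers in the results on P450 genes was not tested. The 3 adipocyte markers had at most 3 counts in every library.

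In the comparison of PRELP-/- with WT, 2 of the 24 members tested passed, Cyp2c23 and Cyp2e1, both higher. The share of 8.33% stood against 7.29% of all 16581 genes tested, of which 1.4% were higher and 5.89% lower. The median log2 fold change was 0.23 over the members tested and 0.02 over all genes. The 4 WT libraries are the same as in the first comparison, so the 2 comparisons are not independent.

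Cyp2c23 rose by 1.81 on the log2 scale (SE 0.38, adjusted p = 0.0253), with 5.46 ± 0.997 CPM in PRELP-/- (SD, n = 3) against 1.52 ± 0.664 CPM in WT (SD, n = 4). Cyp2e1 rose by 1.36 (SE 0.23, adjusted p = 0.0103), with 13.6 ± 3.60 CPM in PRELP-/-. For Cyp2c23 the call was lost without PRELP-/- 2, PRELP-/- 3, WT 3 or WT 4, which left Cyp2e1 as the sole call. With only WT 1 and 2 as controls, neither gene passed.

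PRELP-/- 1 stood apart for several members. Cyp2f2 measured 173 CPM in PRELP-/- 1, within the WT range, and 421 and 412 CPM in PRELP-/- 2 and 3. Its log2 fold change over the 3 libraries was 0.94 (SE 0.28, adjusted p = 0.0829). Without PRELP-/- 1 it was 1.27 (adjusted p = 2.45e-05), and 7 members in place of 2 passed the threshold, all of them higher: Cyp2c23, Cyp2d22, Cyp2e1, Cyp2f2, Cyp2j9, Cyp4f39 and Cyp4v3. Over all genes, the share that passed then rose as well, from 7.29% to 22.2%, and the share that passed as higher from 1.4% to 10.7%.

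Cyp4v3 was above all WT libraries in PRELP-/-, at 46.4, 51.6 and 58.6 CPM (0.55, SE 0.14, adjusted p = 0.0543). Cyp3a57 was at 13.1, 14.7 and 17.5 CPM, and its highest library overlapped WT (-0.59, SE 0.19, adjusted p = 0.0956). Cyp2j6 was at 50.8, 36.3 and 39.0 CPM, above WT in every library (0.39, SE 0.15, adjusted p = 0.137), and Cyp4f39 was at 38.8, 51.4 and 51.1 CPM (0.47, SE 0.18, adjusted p = 0.145). Of the members tested, 5 lay wholly above and 1, Cyp4f17, wholly below WT, against 30% of all genes tested, 13.6% above and 16.4% below. Over all genes tested, 1.4% passed as higher in PRELP-/- and 5.89% as lower. Beside these values, Upk2 rose of 5 umbrella cell markers, whose sum ran from 10653 to 18895 CPM in PRELP-/-. Col1a1 rose of 4 fibroblast markers, whose sum ran from 5140 to 8987 CPM. The other markers of both lists did not pass. Among them Krt20 (-0.10) and Lum (-0.40) had negative log2 differences, and Pdgfra (0.65) and Dcn (0.17) positive ones, as had the other uroplakin genes. The 4 smooth muscle markers did not pass, but their sum of 184 to 213 CPM in PRELP-/- lay below the 248 to 1129 CPM of WT (median of the 4 log2 differences -2.03). That median leans on WT 3 and 4, as with Cnn1 at 8.09, 7.64, 105 and 95.2 CPM in WT 1 to 4. Myh11 and Cnn1 lay below every WT library in PRELP-/-. Acta2 and Des did not, with 139 and 20.3 CPM in PRELP-/- 1 against 132 and 15.5 CPM in WT 1. The 3 macrophage and the 3 endothelial markers did not pass. The part of these markers was not tested.

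**Figure D4:**
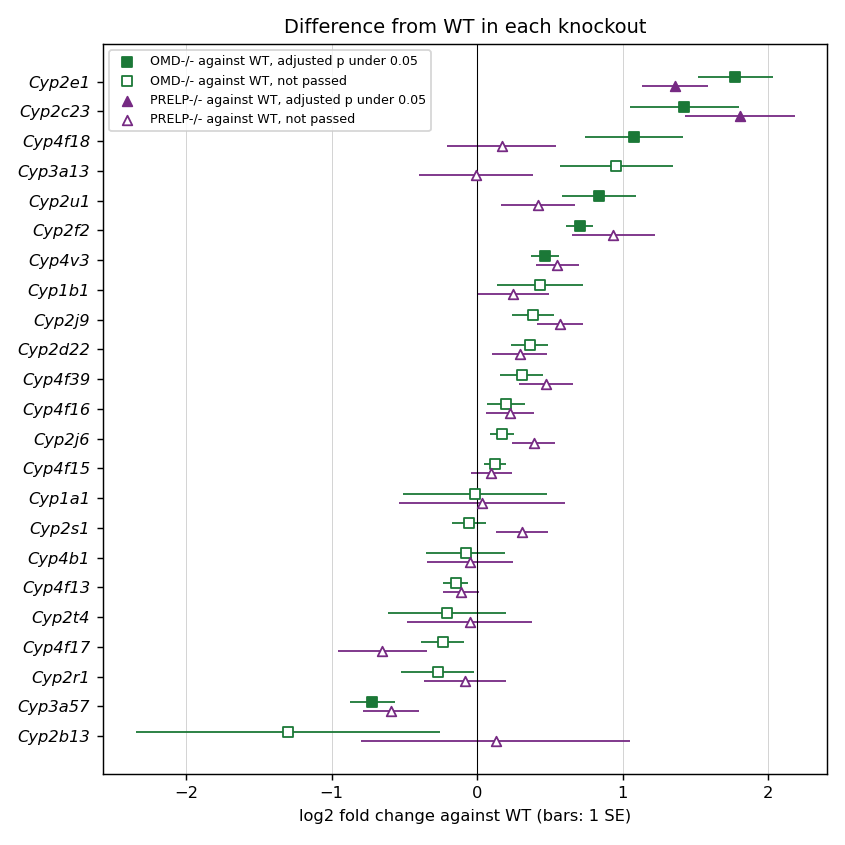
Log2 fold change from WT, with bars of 1 SE, of the 23 members tested in both knockouts, as squares for OMD-/- and triangles for PRELP-/-, filled where the adjusted p was under 0.05. Cyp2e1 (1.77 and 1.36) and Cyp2c23 (1.42 and 1.81) are filled in both knockouts; both sets of values share the 4 WT libraries.

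In the comparison of PRELP-/- with OMD-/-, 0 of the 22 members tested passed in edgeR, against 0.00633% of all 15805 genes tested. At an unadjusted p under 0.05 the counts were 2 in edgeR, 3 in DESeq2 and 2 in limma-voom, where DESeq2 and limma-voom also called 0. DESeq2 tested 36 members in place of 22. The share of all genes under that unadjusted limit was not counted, so these counts do not set the members apart from other genes. The 2 in edgeR were Cyp3a13, at 1.02, 0.961 and 1.15 CPM in PRELP-/- (log2 fold change -0.95, SE 0.32), and Cyp4f18, at 1.87, 1.52 and 1.06 CPM (-0.90, SE 0.30), each with an adjusted p of 0.690. Both lay wholly below OMD-/-, and Cyp2s1 lay wholly above it, where 15.1% of all genes tested had groups that did not overlap, 6.38% above and 8.71% below. The gain of Cyp4f18 in OMD-/- is therefore not shown to differ from its value in PRELP-/-.

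Family 1 varied widely within the groups. Cyp1a1 (chr9:57687928-57703824) measured 41.4, 45.1, 101 and 101 CPM in WT 1 to 4, 35.6, 90.0 and 88.1 CPM in OMD-/- 1 to 3 and 156, 37.0 and 33.4 CPM in PRELP-/- 1 to 3. In each group the libraries fell into lower values, from 33.4 to 45.1 CPM, and higher ones, from 88.1 to 156 CPM. Its log2 fold change was -0.01 in OMD-/- (SE 0.50, adjusted p = 0.986) and 0.03 in PRELP-/- (SE 0.57, adjusted p = 0.978). Without PRELP-/- 1 the latter was -1.02 (adjusted p = 0.124).

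Cyp1b1 (chr17:79701537-79715061) measured 113, 114, 188 and 210 CPM in WT, 141, 248 and 241 CPM in OMD-/- and 222, 166 and 174 CPM in PRELP-/-. Like Cyp1a1, it was lower in WT 1 and 2, OMD-/- 1 and PRELP-/- 2 and 3 than in the other libraries of their group. The log2 fold changes were 0.43 in OMD-/- (SE 0.30, adjusted p = 0.317) and 0.25 in PRELP-/- (SE 0.25, adjusted p = 0.560). In WT and OMD-/-, the libraries with low Cyp1a1 and Cyp1b1 were those with the higher Y chromosome sum in their group (188 and 163 CPM in WT 1 and 2, 18.1 CPM in OMD-/- 1), whereas PRELP-/- 1 had the highest Y sum of its group, 120 CPM, and the highest Cyp1a1. The same WT libraries also differed in the muscle marker Myh11 (108, 96.3, 522 and 433 CPM in WT 1 to 4) and the endothelial marker Pecam1 (118, 124, 55.9 and 52.2 CPM). In OMD-/- 1 to 3 these went the other way beside Cyp1a1 (Myh11 186, 109 and 109 CPM, Pecam1 143, 160 and 164 CPM). The part of sex or of cell types in the Cyp1 levels was not tested. With the Y chromosome level as a covariate, the log2 fold change of Cyp1a1 was -0.22 in OMD-/- (adjusted p = 0.285) and 0.39 in PRELP-/- (adjusted p = 0.757), and Cyp1b1 then passed in OMD-/-.

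**Figure D5:**
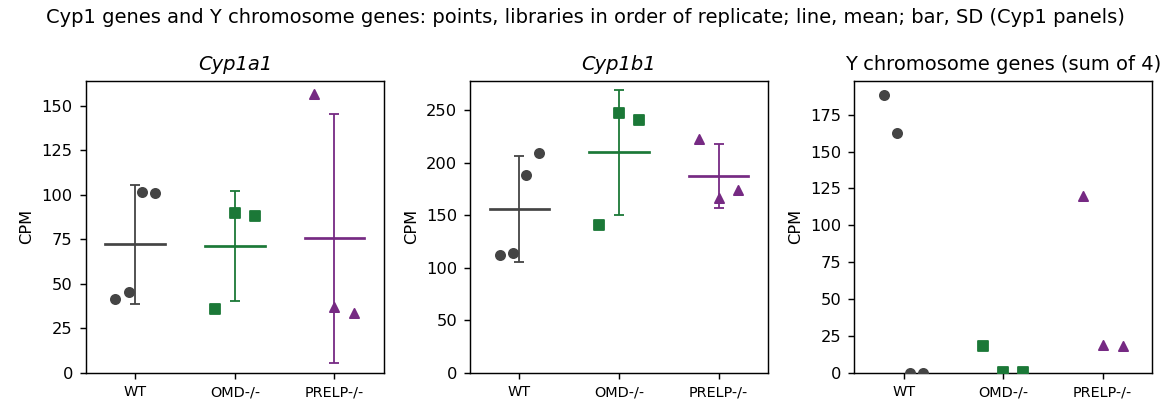
CPM of Cyp1a1 and Cyp1b1 and the summed CPM of 4 Y chromosome genes, with a point for each library in order of replicate; in the Cyp1 panels the line is the group mean and the bar 1 SD. Cyp1a1 splits into low and high libraries within each group, with PRELP-/- 1 the highest at 156 CPM.

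Other genes that AHR works with or induces were measured for comparison. Against 29.4% of all genes past the threshold in OMD-/- and 7.29% in PRELP-/-, of 10 such genes, 3 rose in OMD-/- (Arnt2, a partner of basic helix-loop-helix factors, by 1.08 on the log2 scale, the chaperone Hsp90ab1 by 0.51 and Ahr itself by 0.38) and 1 fell (the quinone reductase Nqo1, -0.28), with adjusted p between 0.00451 and 0.0265. None of the 10 passed in PRELP-/-. Tiparp and Ahrr, induced feedback genes of AHR named here after their values were seen, did not pass in either knockout. Tiparp measured 43.9, 37.0, 57.7 and 61.9 CPM in WT, 48.8, 143 and 137 CPM in OMD-/- and 25.4, 48.7 and 54.0 CPM in PRELP-/-. Its lower libraries in WT and OMD-/- were those with low Cyp1a1, and PRELP-/- 1, the highest for Cyp1a1, was the lowest of all for Tiparp. Ahrr was also lower in those WT and OMD-/- libraries, with PRELP-/- 1 between PRELP-/- 2 and 3. Other genes of the list differed. Aldh3a1 was higher in WT 1 and 2 than in WT 3 and 4, and measured 526, 423 and 433 CPM in OMD-/-. Nqo1 was lower in WT 1 and 2 but highest of its group in OMD-/- 1. Both were highest in PRELP-/- 1, as was Cyp1a1. Whether the list as a whole goes with Cyp1a1 was not tested.

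Of 7 redox partners, which feed electrons to P450 enzymes or bind them, 3 rose and 1 fell in OMD-/-, where 14.3% of all genes rose and 15.1% fell. None passed in PRELP-/-, against 7.29% of all genes tested. Por, the reductase, rose from a WT mean of 247 ± 2.43 CPM (SD, n = 4) to 365 ± 14.2 CPM in OMD-/- (SD, n = 3), or 0.56 on the log2 scale (SE 0.08, adjusted p = 0.000483). The cytochrome b5 reductase Cyb5r3 rose by 0.46 and Pgrmc2, a haem-binding membrane protein, by 0.23, while cytochrome b5 itself (Cyb5a) fell by 0.54 on the log2 scale. Of 13 nuclear receptors that govern P450 genes, 10 were tested. The vitamin D receptor Vdr was the 1 that passed in OMD-/- (0.55, adjusted p = 0.0133), against 29.4% of all genes tested. The receptors that induce Cyp2b and Cyp3a genes in liver, Nr1i3 and Nr1i2, were at or below 0.458 and 0.227 CPM in every library.

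Among 14 tested enzymes that share substrates with the fatty acid P450 genes, 5 rose and 1 fell in OMD-/-, again beside 14.3% and 15.1% of all genes. Prostacyclin synthase (Ptgis) rose by 0.47, fatty acid amide hydrolase (Faah) by 0.40 and soluble epoxide hydrolase (Ephx2), which opens the epoxides made by P450 epoxygenases, by 0.32 on the log2 scale, while the prostaglandin dehydrogenase Hpgd fell by 0.43. Their adjusted p ran from 0.00386 to 0.0143. In PRELP-/-, Ephx2 was the 1 of the 14 that passed, against 7.29% of all genes tested. It measured 38.0, 35.7, 35.8 and 35.0 CPM in WT and 71.3, 51.1 and 53.3 CPM in PRELP-/- (0.67, SE 0.15, adjusted p = 0.0277), with PRELP-/- 1 the highest.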

How the data were processed

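The deposited values were raw counts per gene in 10 libraries, made by the authors with featureCounts. Per the submitters' processing notes the reads were aligned with STAR 2.5.2b, while the file headers name HISAT2, on GRCm38 (hg38 is listed as well). The library kit keeps strand and adds molecular identifiers, but whether counting used either is not given in the sources used here. The deposited DESeq2 tables hold the authors' own comparisons and were not used. Gene IDs were matched to GENCODE vM21 (55536 of 55536).

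Every comparison used the libraries of its 2 groups alone, in edgeR 4.0.16 in R 4.3.3 (TMM, filterByExpr, robust quasi-likelihood F test, two-sided, Benjamini-Hochberg over all genes tested). Scripts were tested on simulated data. CPM used TMM factors over all 10 libraries, and RPKM divided them by summed exon length. Groups and replicate numbers came from the sample titles, which do not say whether samples are separate animals, so p-values measure the spread between samples, which may be technical. Same-numbered PRELP-/- and OMD-/- libraries deviated together (r = 0.303, 0.181 and 0.148), and a replicate block was also fitted. Alternatives were DESeq2 1.42.0, limma-voom 3.58.1, other size factors, no filter, all groups in one fit, a replicate block, a Y chromosome covariate, subsets of WT and leaving out each library.

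Genes were named where they passed in any comparison, were among the 10 highest in RPKM in WT, or belonged to 13 fixed by name. Of other lists, those past the threshold with the largest change were named. The members and lists were chosen with earlier results of these data known.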

Additional observations from a re-analysis of the deposited data

How the results depend on the processing

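No member reversed its direction while past the threshold in any setting tried. The count of members past the threshold in OMD-/- against WT was 7, and leaving out each library gave 4 to 9, with 4 without OMD-/- 3. It was 5 with all 3 groups in one fit, 9 with WT 3 and 4 only and 10 with the Y chromosome covariate. The share of all genes that passed moved too, from 29.4% to 17.2% without OMD-/- 3 and 21.2% with a replicate block. In one fit, with WT 3 and 4 only and with the covariate it was 14.7%, 39.8% and 39%. The median log2 fold change of the members tested was 0.28 under limma-voom and from 0.17 to 0.27 with a library left out. In PRELP-/- against WT the count of 2 became 6 with all 3 groups in one fit, 5 in DESeq2's Wald test, 1 with WT 3 and 4 only and 0 with WT 1 and 2 only, and leaving out each library gave 1 to 7, with 7 without PRELP-/- 1. The share of all genes that passed moved too, from 7.29% to 14.7% in one fit, 8.19% in DESeq2, 2.7% and 0.715% with those WT pairs, 22.2% without PRELP-/- 1 and 0.683% with a replicate block. DESeq2 tested more genes of low count, so its share is not on the same base. It called 2547 of 31108 genes and 5 of 44 members, against 1209 of 16581 genes and 2 of 24 members in edgeR. The median of 0.23 became 0.28 under limma-voom, 0.37 with WT 1 and 2 only, 0.14 with WT 3 and 4 only, 0.32 with the Y chromosome covariate and from 0.16 to 0.33 with a library left out. The cause was not tested. With the replicate number as a block, PRELP-/- against WT gave 0 members, a median of 0.30 and adjusted p of 0.139 for Cyp2e1 and 0.169 for Cyp2c23, and OMD-/- against WT gave 8, with Cyp2u1 lost and Cyp1b1 and Cyp3a13 gained. Those numbers do not pair knockout and WT libraries (r from -0.0998 to 0.137). Between the knockouts the block changed no call of a member, while calls over all 15805 genes tested went from 1 to 43. Over 16 settings, Cyp2e1, Cyp3a57 and Cyp4v3 passed in OMD-/- in 16, Cyp2c23 and Cyp2f2 in 15, Cyp4f18 in 10 and Cyp2u1 in 9, and in PRELP-/- Cyp2e1 passed in 13 and Cyp2c23 in 10. With a floor of 10 counts or of 0.5 CPM, 21 members in place of 23 were detected in every WT library. Depth limits members of low level: Cyp3a13 rests on 12 to 62 and Cyp2t4 on 4 to 23 counts a library.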

Other observations

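P450 genes outside families 1 to 4 and the enzymes that conjugate P450 products were counted by the same test. Of 19 P450 genes of other families, 6 were tested, and 2 rose in OMD-/-, where 14.3% of all genes tested rose and 15.1% fell. Cyp26b1, which breaks down retinoic acid, measured 11.0, 11.3, 3.94 and 4.34 CPM in WT 1 to 4, 17.3, 53.5 and 54.9 CPM in OMD-/- 1 to 3 and 17.1, 11.3 and 10.1 CPM in PRELP-/- 1 to 3. All OMD-/- libraries lay above WT, with OMD-/- 2 and 3 well above OMD-/- 1 (edgeR log2 fold change 2.44, SE 0.56, adjusted p = 0.0208). Cyp20a1 rose by 0.37 on the log2 scale (adjusted p = 0.00637). None of the 6 passed in PRELP-/-, against 7.29% of all genes tested. Steroid-making Cyp11b2 and Cyp19a1 and the vitamin D hydroxylase Cyp24a1 had 0 CPM in every library.

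Of 29 conjugating enzymes tested, 5 rose and 4 fell in OMD-/-, which is near the 29.4% of all genes that passed. Gstm2, a glutathione transferase, rose by 0.56 on the log2 scale (adjusted p = 0.00418). The glucuronosyl transferase Ugt1a6a fell by 0.93 (adjusted p = 0.000391), the glutathione transferase Gstt2 by 0.55 (adjusted p = 0.00190) and Mgst2 by 0.50 (adjusted p = 0.00825). Ugt1a6a was also the 1 of the 29 that passed in PRELP-/-, against 7.29% of all genes tested. There it fell by 0.74 (adjusted p = 0.0441). It measured 22.8, 27.1, 23.3 and 24.6 CPM in WT, 12.3, 11.6 and 14.7 CPM in OMD-/- and 19.4, 12.3 and 12.9 CPM in PRELP-/- and was lower in all 6 knockout libraries than in any of the 4 WT libraries. Ugt1a genes share their last exons, so reads could be split between them.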
